A study of Mus musculus with 18 samples.

Results

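The Cyp4a genes of the mouse encode cytochrome P450 enzymes that hydroxylate fatty acids, and 6 of them are described here in livers of mice transduced with adeno-associated virus (AAV). They are Cyp4a10, Cyp4a12a, Cyp4a12b, Cyp4a14, Cyp4a31 and Cyp4a32. A member was a transcript cluster of the array whose gene symbol, as the authors' deposited tables give it, equals 1 of these 6 names. Where a symbol has several clusters, the member was to be selected on its mean log2 signal over all 18 arrays. Of 40161 clusters with a symbol, 5 matched, exactly 1 for each of Cyp4a12a, Cyp4a12b, Cyp4a14, Cyp4a31 and Cyp4a32, so no measured value decided between clusters. Cyp4a10 had 0 clusters of its own. A further cluster carries the symbols Cyp4a10 and Cyp4a31 together. It is called the shared cluster here, is described beside the 5 members and is left out of counts of members. Its RefSeq accession belongs in the RefSeq gene table to Cyp4a10, while the Cyp4a31 cluster lists accessions of Cyp4a31.

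RNA came from the livers of 18 adult healthy male mice, with 1 Affymetrix Mouse Transcriptome Array 1.0 per animal. The labels give 6 groups of 3 arrays, namely livers labelled HPNWT and livers labelled EGFP at day 1, day 2 and day 4, all with AAV in the label. EGFP is a green fluorescent protein, the control here. Per the series' design text the transduction was for hepsin overexpression in the liver. HPNWT is not spelled out in the labels, and the event that starts the count of days is not named there. Strain, vector dose, promoter and age beyond adult were likewise not found in the labels.

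Cyp4a enzymes add a hydroxyl group to the last carbon of a fatty acid, the omega position. Alcohol and aldehyde dehydrogenases then turn the product into a dicarboxylic acid, which peroxisomes shorten by beta-oxidation. Cyp4a10 and Cyp4a14 are classic targets of PPARalpha, the nuclear receptor that fatty acids and fibrate drugs activate, and rise in fasted liver. Cyp4a12a converts arachidonic acid into 20-HETE, a lipid that constricts blood vessels, and Cyp4a12 expression is known to be higher in male than in female mice and to depend on androgens.

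The genes lie side by side on mouse chromosome 4, which gives the family its local context. In the RefSeq table of the GRCm38.p6 assembly Cyp4a12a comes first among the members, then Cyp4a12b, Cyp4a14, Cyp4a10, Cyp4a31 and Cyp4a32. Other Cyp4a genes and pseudogenes between or before them, Cyp4a28-ps, Cyp4a29, Cyp4a30-ps and Cyp4a30b, had low signals. Of these, Cyp4a30-ps had the highest group mean, 4.19 log2 in EGFP livers at day 1. Cyp4a30-ps was called lower at day 2 (−0.51, limma adjusted p = 0.0213) at those low signals. All were below 6.16, the 95th percentile of the array's 5222 negative-control probe sets, used here as the mark of background.

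RefSeq's promoter table (GRCm38.p6) held 1 of the 6 members, Cyp4a32. Its window of 300 bases is shown because Cyp4a32 was lower in HPNWT livers at day 2, and lies at chr4:115600688-115600987 on the + strand, with 42.7% G and C. The capitals mark GTTAAT, a half-site of the liver factor HNF1.
Cyp4a32 promoter: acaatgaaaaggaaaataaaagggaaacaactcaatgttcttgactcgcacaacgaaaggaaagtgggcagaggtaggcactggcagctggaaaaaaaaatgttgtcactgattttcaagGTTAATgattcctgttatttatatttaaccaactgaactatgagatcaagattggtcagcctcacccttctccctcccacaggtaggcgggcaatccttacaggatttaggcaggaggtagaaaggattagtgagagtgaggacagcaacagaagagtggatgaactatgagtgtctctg
Both strands were searched for 3 motifs. GTTAAT matched 1 time, on the + strand 130 bases before the start, and is present in 7.1% of the 32851 promoters in the table. The nuclear receptor half-site AGGTCA matched 0 times (present in 16.3% of promoters), as did TTCNNNGAA, the palindrome that STAT5 binds (8.3%). A match is only a run of letters, and no match speaks of this window alone.

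All 5 members and the shared cluster were above the negative-control mark in every group mean. The arrays were alike, with correlations from 0.982 to 0.998 between them. The median of the negative controls, averaged over a group, differed too, by −0.17, −0.37 and −0.12 log2 (HPNWT minus EGFP) at days 1, 2 and 4. Their part in the results was not tested beyond the fits with that median as a covariate given below. The cluster of Hpn, the hepsin gene, did not pass the test (−0.06, −0.08 and 0.11 log2, limma adjusted p = 0.894, 0.731 and 0.809). The labels do not say which hepsin sequence the vector carried, and groups are named by their labels throughout. All 12 measured hepatocyte markers were above the negative-control mark. All 8 lymphocyte and all 6 neutrophil markers stayed under it on every array. In bulk liver, fewer cells of a type and less RNA per cell cannot be told apart.

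Cyp4a12a and Cyp4a12b had the largest differences of the 5 members at days 2 and 4. Both were called lower in HPNWT livers at these days, while the F-test given below called neither over the 3 days in EGFP livers. The fold by which HPNWT livers were lower was 2.92 (day 2) and 6.33 (day 4) for Cyp4a12a. For Cyp4a12b the folds were 3.16 (day 2) and 7.46 (day 4). At day 1 neither passed the test. The day 2 calls of both ended with each array's negative-control median as a covariate (−0.61 and −0.82, limma adjusted p = 0.812 and 0.682) and without HPNWT day 2 replicate 2 (−1.32 and −1.44, adjusted p = 0.113 and 0.0573). The day 4 calls held in both fits.

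**Figure D1:**
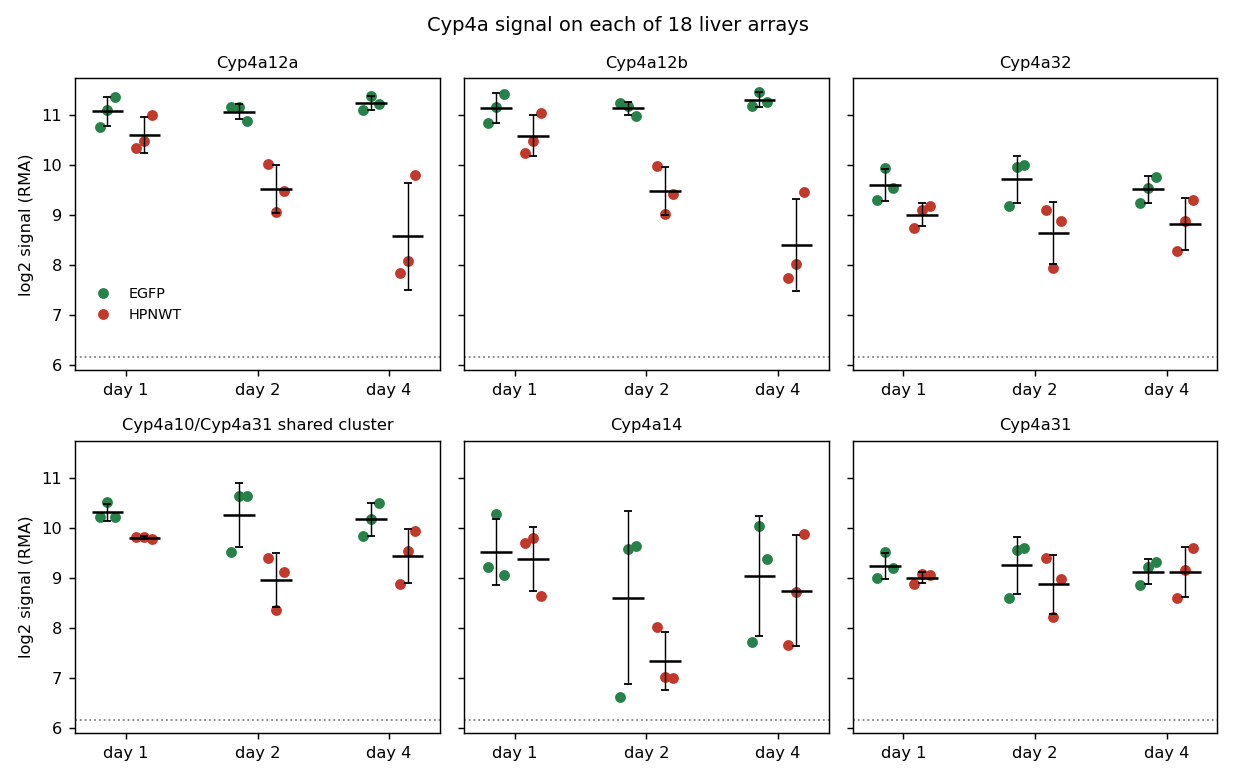
Signal of the 5 Cyp4a members and the shared cluster on each array (y axis, log2 RMA signal) by day (x axis). Each point is 1 animal (3 per group), black bars are group means with SD, and the dotted line is the 95th percentile of the negative controls (6.16). Cyp4a12a and Cyp4a12b separate at days 2 and 4, while Cyp4a14 and Cyp4a31 overlap at all 3 days.

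At day 1, Cyp4a12a measured 10.33, 10.47 and 11 log2 in HPNWT replicates 1 to 3, and 10.77, 11.11 and 11.35 in EGFP replicates 1 to 3. HPNWT replicate 3 lay within the range of the EGFP livers, so the groups overlapped. The difference was −0.47 (SE 0.37, limma adjusted p = 0.640). At day 2 the HPNWT livers measured 10.03, 9.07 and 9.47 and the EGFP livers 11.16, 11.15 and 10.89. All HPNWT livers were now below all EGFP livers, by −1.55 on average (SE 0.37, adjusted p = 0.0221). At day 4 the HPNWT livers measured 7.85, 8.07 and 9.81 and the EGFP livers 11.10, 11.38 and 11.23. HPNWT replicates 1 and 2 were the lowest of all 18 livers and replicate 3 sat well above them, still below every EGFP liver. The difference at day 4 was −2.66 (SE 0.37, adjusted p = 6.6e-04).

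Cyp4a12b followed the same course. At day 1 it measured 10.25, 10.48 and 11.04 in HPNWT livers against 10.84, 11.16 and 11.42 in EGFP livers, which overlapped. The difference was −0.55 (SE 0.34, adjusted p = 0.499). At day 2 it measured 9.98, 9.03 and 9.42 against 11.24, 11.18 and 10.99, with no overlap, a difference of −1.66 (SE 0.34, adjusted p = 0.00990). At day 4 it measured 7.74, 8.02 and 9.46 against 11.18, 11.47 and 11.27. Again no HPNWT liver reached an EGFP liver, and replicate 3 was the highest of its group. The difference was −2.90 (SE 0.34, adjusted p = 1.5e-04).

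Ranked by the size of the fall among the 40161 clusters tested, Cyp4a12a was at place 822 at day 1, 32 at day 2 and 6 at day 4, and Cyp4a12b at place 565, 26 and 4. The order of the group means was the same for both, HPNWT day 4 lowest, then HPNWT day 2 and HPNWT day 1, then the 3 EGFP groups. The EGFP groups could not be ordered, with Cyp4a12a means of 11.08 ± 0.295, 11.07 ± 0.156 and 11.24 ± 0.140 (SD, n = 3) at days 1, 2 and 4. Neighbours in the order among HPNWT groups also overlapped between day 2 and day 4, since replicate 3 at day 4 lay above 2 of the 3 livers of day 2. A moderated F-test over the 3 days found a change of Cyp4a12a (adjusted p = 0.0385) and Cyp4a12b (adjusted p = 0.0137) within HPNWT livers. That test called 0.64% of all clusters, and its call for Cyp4a12a held in 2 of the 18 fits that left out 1 array, with adjusted p from 1.3e-04 to 0.130. The same test over the EGFP livers called 0 of 5 members, 0 at an unadjusted p under 0.05, and 0% of all clusters (0 of 40161, with 1622 at an unadjusted p under 0.05).

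Whether the difference grew between the days was tested directly. From day 1 to day 4 the Cyp4a12a difference moved by −2.19 (SE 0.52, adjusted p = 0.175) and the Cyp4a12b difference by −2.35 (SE 0.48, adjusted p = 0.0810), so neither passed the test over all clusters, which called 0.0946% of them. Without HPNWT day 4 replicate 3 both passed, at −2.80 (adjusted p = 8.4e-04) and −2.87 (adjusted p = 8.6e-04). That liver was the highest of its group for both, so leaving it out could only enlarge the change. Of the 18 fits that left out 1 array, this was the only 1 in which either passed. The share of all clusters called in it was not counted. From day 1 to day 2 the test called 0 of 5 members (1 at an unadjusted p under 0.05) and 0% of clusters. From day 2 to day 4 it called 0 of 5 members (2 at an unadjusted p under 0.05) and 0.00498% of clusters.

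HPNWT day 4 replicate 3, the liver with the highest Cyp4a12 signals of its group, also had the highest summed linear signal of the markers of several other cell types. The 8 sinusoidal endothelial markers, all above the negative-control mark on at least 1 array, summed to 2086 on this array, against 1112 to 1426 on the other 17. The 8 stellate cell markers summed to 1478, against 849 to 1092, with Des under the mark on every array. The 7 cholangiocyte markers summed to 804, against 351 to 632, with Krt19, Krt7, Epcam and Cftr under the mark on every array. For these markers HPNWT day 4 replicates 1 and 2 came next, at 632 and 597, above the highest sum in the other groups, 534. The 9 Kupffer cell and macrophage markers summed to 1668, against 1078 to 1661, with Timd4 under the mark. The 12 hepatocyte markers, by contrast, had their lowest sum on this array, 44287.7, against 44359.4 to 53044.5 on the other 17. The part of these marker sums in the Cyp4a values was not tested. Without this array, the highest of its group, the day 4 differences were by construction larger, −3.28 for Cyp4a12a and −3.43 for Cyp4a12b.

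The clusters of Cyp4a12a and Cyp4a12b moved almost as 1 measurement, with a Pearson r of 0.997 over the 18 arrays and 0.994 once each group's mean was taken off. They are close paralogs, and whether probes of either cluster detect transcripts of the other was not tested. The pair is therefore not independent evidence of the same fall.

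Cyp4a32 and the shared cluster showed a difference of the same sign, smaller than that of Cyp4a12a and Cyp4a12b at days 2 and 4. At day 1 the differences were −0.59 for Cyp4a32 and −0.51 for the shared cluster, against −0.47 for Cyp4a12a and −0.55 for Cyp4a12b. For Cyp4a32 and the shared cluster, the 3 HPNWT livers lay below the 3 EGFP livers at day 1 and day 2. Among the single days day 2 alone passed the test for them, though no test of a difference between days passed. At day 4 the groups overlapped.

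For Cyp4a32 the day 1 values were 8.75, 9.09 and 9.18 in HPNWT livers and 9.31, 9.95 and 9.55 in EGFP livers. All HPNWT livers were below all EGFP livers, and the difference of −0.59 (SE 0.31, adjusted p = 0.373) was not called. At day 2 it measured 9.11, 7.94 and 8.87 in HPNWT livers and 9.18, 9.96 and 10.01 in EGFP livers. HPNWT replicate 2 was the lowest liver of all, HPNWT replicate 1 nearly reached EGFP replicate 1, and the groups did not overlap. The difference was −1.08, or 2.11-fold (SE 0.31, adjusted p = 0.0489). It stood just inside the threshold and was lost in 14 of the 18 fits that left out 1 array, with differences from −1.35 to −0.73, the smallest without HPNWT day 2 replicate 2. At day 4 it measured 8.27, 8.88 and 9.31 against 9.24, 9.54 and 9.76. HPNWT replicate 3 lay above the lowest EGFP liver, and the difference of −0.69 (SE 0.31, adjusted p = 0.359) was not called.

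The shared cluster of Cyp4a10 and Cyp4a31 measured 9.82, 9.82 and 9.77 in HPNWT livers at day 1 and 10.22, 10.51 and 10.21 in EGFP livers. The HPNWT livers were tightly grouped below the EGFP livers, and the difference of −0.51 (SE 0.31, adjusted p = 0.492) was not called. At day 2 it measured 9.38, 8.35 and 9.12 against 9.51, 10.63 and 10.63. The groups stayed apart, though EGFP replicate 1 was close to HPNWT replicate 1, and the difference was −1.30, or 2.47-fold (SE 0.31, adjusted p = 0.0212). At day 4 it measured 8.87, 9.53 and 9.93 against 9.83, 10.18 and 10.5. HPNWT replicate 3 passed the lowest EGFP liver, and the difference of −0.73 (SE 0.31, adjusted p = 0.338) was not called.

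Cyp4a14 had the largest standard error of the members, and its groups overlapped at all 3 days. At day 1 it measured 9.69, 9.79 and 8.63 in HPNWT livers and 9.22, 10.28 and 9.06 in EGFP livers, which overlapped. At day 2 it measured 8.01, 7.01 and 7.0 in HPNWT livers and 6.61, 9.58 and 9.63 in EGFP livers. EGFP replicate 1 was the lowest of all 18 livers, whereas the other two EGFP livers lay above every HPNWT liver of that day. At day 4 it measured 7.65, 8.71 and 9.87 against 7.71, 10.04 and 9.38, again overlapping. The differences were −0.15, −1.26 and −0.30 (SE 0.75 each), with adjusted p = 0.966, 0.371 and 0.934. Its SD within a group ran from 0.578 in HPNWT livers to 1.73 in EGFP livers, both at day 2. Without EGFP day 2 replicate 1 the day 2 difference was −2.26 (adjusted p = 0.0672). Over the 18 fits that left out 1 array it ran from −2.26 to −0.75, with limma adjusted p from 0.0672 to 0.698. EGFP day 2 replicate 1 was also the lowest of the EGFP livers at day 2 for Cyp4a31, Cyp4a32 and the shared cluster, but not for Cyp4a12a or Cyp4a12b.

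Cyp4a31 was the member with the smallest range, from 8.22 to 9.60 over all 18 livers. It measured 8.88, 9.08 and 9.05 in HPNWT livers at day 1 and 9.0, 9.51 and 9.19 in EGFP livers. At day 2 it measured 9.40, 8.22 and 8.98 against 8.59, 9.56 and 9.60. At day 4 it measured 8.59, 9.16 and 9.59 against 8.85, 9.21 and 9.32. The groups overlapped at every day, and the differences of −0.23, −0.38 and −0.01 (SE 0.30 each) did not pass the test (adjusted p = 0.821, 0.503 and 0.995). The 95% interval at day 4, not adjusted for the number of clusters, reached from −0.65 to 0.63. Differences within that range, in either direction, were therefore not excluded.

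**Figure D2:**
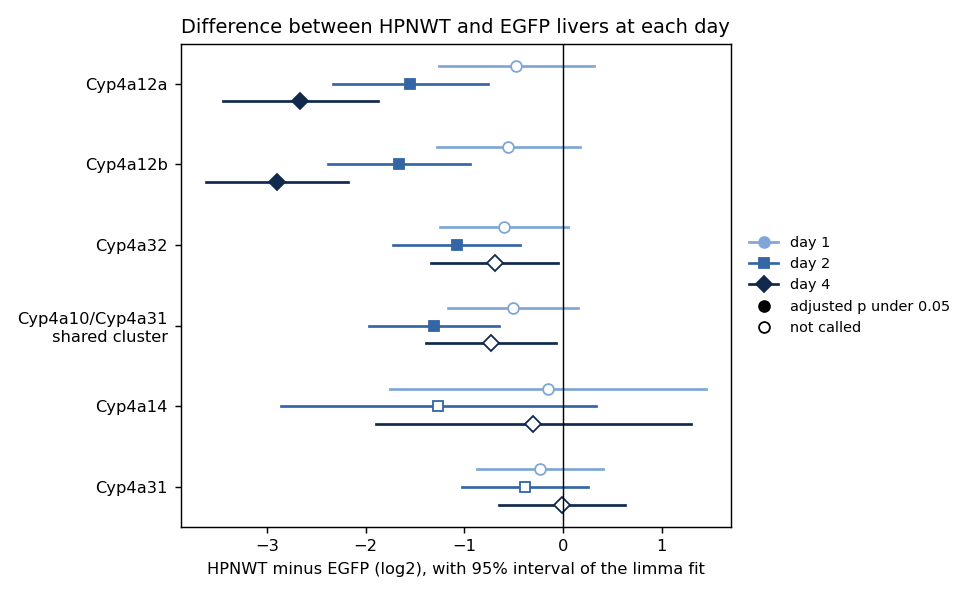
Difference HPNWT minus EGFP (x axis, log2) of each Cyp4a cluster (y axis) at day 1, 2 and 4, with the 95% interval of the limma fit over 18 arrays. Filled symbols passed an adjusted p under 0.05. The Cyp4a12a and Cyp4a12b differences reach −2.66 and −2.90 at day 4, while the intervals of Cyp4a14 and Cyp4a31 include 0 at all 3 days.

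Counted over the 5 members, limma called 0 lower at day 1 (0 at an unadjusted p under 0.05, 2 with array weights), 3 at day 2 and 2 at day 4. It called 1.62%, 3.51% and 0.67% of all clusters lower at these days. With array weights it called 3411 clusters lower at day 1, against 649 without them. At an unadjusted p under 0.05 the members numbered 0, 3 and 3, against 15.8%, 19.9% and 12.2% of all clusters. Limma called 0 of the 5 higher at each day, and each of their differences was negative. It called 2.97%, 2.16% and 1.54% of all clusters higher at days 1, 2 and 4. All 3 HPNWT livers lay below all 3 EGFP livers for 1 member at day 1, 3 at day 2 and 2 at day 4, against 8.21%, 13.1% and 5.7% of all clusters. The day 2 calls did not hold in a fit with each array's negative-control median as a covariate. That fit called few clusters of any kind at day 2, 71 higher and 16 lower, against 869 and 1408 without the covariate. With it the differences were −0.61 for Cyp4a12a (adjusted p = 0.812), −0.82 for Cyp4a12b (0.682), −0.56 for Cyp4a32 (0.809) and −0.86 for the shared cluster (0.676). At day 4 the same fit gave −2.36 for Cyp4a12a (adjusted p = 0.00150) and −2.63 for Cyp4a12b (3.3e-04).

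Averaged over the 3 days, a comparison added after the day values were seen, Cyp4a12a was lower by −1.56 (SE 0.21, limma adjusted p = 1.1e-04) and Cyp4a12b by −1.70 (SE 0.20, adjusted p = 2.1e-05). Cyp4a32 was lower by −0.79 (SE 0.18, adjusted p = 0.00549), and the shared cluster by −0.85 (SE 0.18, adjusted p = 0.00386). These calls held in each of the 18 fits that left out 1 array. With the negative-control covariate the differences were −1.0 for Cyp4a12a (adjusted p = 0.0615), −0.48 for Cyp4a32 (0.334) and −0.58 for the shared cluster (0.262), and those calls were lost. Cyp4a14, at −0.57 (95% interval −1.49 to 0.35), and Cyp4a31, at −0.21 (−0.58 to 0.16), did not pass. This comparison called 3 of 5 members lower and 7.33% of all clusters.

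The authors' deposited table is on a scale of its own, with larger folds for most but not all members and days. In it Cyp4a12a is 2.4, 10.14 and 84.34-fold lower in HPNWT livers at days 1, 2 and 4, with a false discovery rate of 0.6283, 0.0271 and 0.0017. Cyp4a12b is 2.47, 12.15 and 103.31-fold lower in the authors' deposited table, with 0.4962, 0.0098 and 3e-04. Among clusters that differ by more than 0.5 log2 in the value table, the authors' log2 differences were 1.78, 1.74 and 1.60 times as large at the median at days 1, 2 and 4. No source used here gives the settings of that table. Cyp4a14 at day 2 is listed in the authors' deposited table as 30.31-fold lower (false discovery rate 0.4332), while the value table gives 2.40-fold. Cyp4a31 at day 1 is listed in the authors' deposited table as 1.11-fold lower, below the 1.18-fold of the value table. The sources part over Cyp4a32 at day 2, where the authors' deposited table gives a false discovery rate of 0.0578. They also part over the sign of Cyp4a14 at day 1, which the authors' deposited table lists as 1.73-fold higher.

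Across arrays Cyp4a12a and Cyp4a12b were closest to each other, and their likeness to the rest depended on which arrays were read. Over the 18 arrays Cyp4a12a had a Pearson r of 0.750 with Cyp4a32 and 0.729 with the shared cluster, and 0.390 and 0.378 with Cyp4a14 and Cyp4a31. With group means taken off it had 0.629 with Cyp4a32, 0.591 with Cyp4a31, 0.508 with the shared cluster and 0.342 with Cyp4a14. Over the 18 arrays Cyp4a32 and the shared cluster had a Pearson r of 0.948, and with group means taken off Cyp4a31 and Cyp4a32 had 0.979. Cyp4a14 was nearest to the shared cluster, at 0.777 and 0.838 in the same order of measures. Among the 9 EGFP livers, Cyp4a12a had an r between −0.15 and 0.01 with Cyp4a14, Cyp4a31, Cyp4a32 and the shared cluster. Those 4 had an r between 0.757 and 0.972 with each other in the same livers. These correlations are descriptions over arrays that share 1 normalization, and whether paralogs share signal was not tested.

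**Figure D3:**
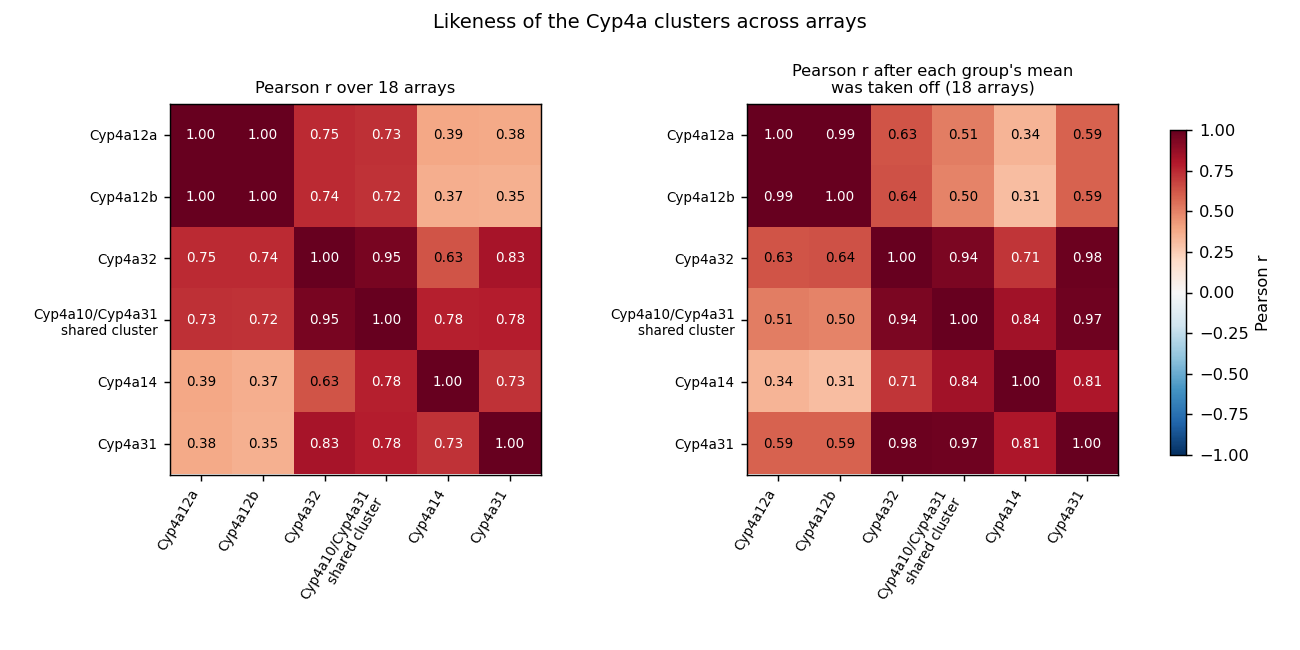
Pearson r between Cyp4a clusters over 18 arrays (left) and after each group's mean was taken off (right), on a colour scale from −1 to 1. Cyp4a12a and Cyp4a12b form a pair (0.997 and 0.994), and Cyp4a31, Cyp4a32 and the shared cluster have 0.939 to 0.979 on the right.

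The genes most like each member across the 18 arrays were taken from 17632 genes. For Cyp4a12a they were Retsat, which saturates retinol (r 0.934), Cpt2, the inner mitochondrial carnitine palmitoyltransferase (0.929), and Paqr9, a membrane receptor family member (0.919). The same 3 came first for Cyp4a12b (0.931, 0.922 and 0.910). With group means taken off, r with Cyp4a12a was 0.795 for Retsat, 0.872 for Cpt2 and 0.790 for Paqr9. For Cyp4a32 they included Etfdh, which passes electrons from fatty acid oxidation to ubiquinone (0.865), and Hsdl2 (0.854). For the shared cluster they were Hsdl2 (0.866), Retsat (0.855) and the glutathione peroxidase Gpx1 (0.843). The likeness of Cyp4a14 was lower, led by Sgf29 (0.758), the acyl-CoA thioesterase Acot1 (0.743) and Cyp4a30b (0.721), whose mean of 3.43 log2 lay under the negative-control mark. For Cyp4a31 the leading gene was Apobec1, the apolipoprotein B mRNA editing enzyme (0.754), and its r fell to 0.597 without the 2 arrays farthest from the Cyp4a31 median. Zfp740 (0.716) and Fcgr2b (0.688) followed.

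Around the members, 11 lists of pathway genes were read in the same fit, 251 of 263 genes being measured. Over all genes, each represented by its brightest cluster, 3.17%, 2.25% and 1.64% were called higher, and 1.53%, 3.42% and 0.679% lower, at days 1, 2 and 4.

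Of 26 measured partners of omega-oxidation and dicarboxylic acid oxidation, 1, 1 and 1 were called higher and 3, 4 and 0 lower at days 1, 2 and 4. The list's median difference was −0.11, −0.16 and −0.09, against 0.01, 0.05 and 0.01 for all genes. Aldh3a2, the fatty aldehyde dehydrogenase that acts after the Cyp4a step, was lower at day 2 by −1.18 (SE 0.21, adjusted p = 0.00377) and was not called at day 1 (−0.48) or day 4 (−0.54). Adh4, an alcohol dehydrogenase, was lower at day 1 (−0.82) and day 2 (−0.75). The peroxisomal thiolases Acaa1a (−0.55 and −0.47) and Acaa1b (−0.71 and −0.70) were also lower at days 1 and 2. Acsl5, which joins fatty acids to coenzyme A, was higher at all 3 days (0.78, 0.91 and 0.71). Por, which supplies electrons to P450 enzymes, did not pass at any day (−0.49, −0.22 and −0.21).

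Of 13 measured P450 genes of the other Cyp4 subfamilies, 1 was lower at day 1, 1 was lower and 1 higher at day 2, and limma called 0 at day 4. Cyp4f15, which belongs to a subfamily that hydroxylates leukotrienes, was lower at day 1 (−0.74, SE 0.07) and day 2 (−0.38). Cyp4f16 was higher at day 2 (0.24), with both group means under the negative-control mark.

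Of 40 PPARalpha target genes, 1, 0 and 0 were called higher and 1, 3 and 2 lower at days 1, 2 and 4, and the median was −0.04, −0.13 and −0.01. Retsat was lower at day 2 (−1.17, SE 0.19, adjusted p = 0.00259) and day 4 (−1.21, SE 0.19, adjusted p = 0.00237), as was Cpt2 (−0.54 and −0.62). Mgll, a monoacylglycerol lipase, was lower at day 2 (−0.64). Plin5, a lipid droplet protein, was lower at day 1 (−0.68), and Fabp1, the liver fatty acid binding protein, was higher at day 1 (0.36). Ppara itself did not pass at any day (−0.10, −0.01 and 0.17). Of 29 nuclear receptors and cofactors, 2 were called, both lower at day 2, Ncor1 (−0.37) and Ncoa1 (−0.31).

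Of 21 male-biased liver genes, a list without the Cyp4a members, 1, 0 and 0 were called higher and 2, 6 and 5 lower at days 1, 2 and 4. The median was −0.16, −0.30 and −0.21. Elovl3, a fatty acid elongase, was lower at day 2 by −1.87 (SE 0.41, adjusted p = 0.0145) and at day 4 by −2.90 (SE 0.41, adjusted p = 8.3e-04). Nudt7, a peroxisomal hydrolase of coenzyme A, was lower at all 3 days (−1.14, −1.02 and −1.02). Cyp7b1, an oxysterol hydroxylase, was lower at day 4 (−1.66), C8b, a complement component, at days 2 and 4 (−0.33 and −0.48), Ugt2b1 at days 2 and 4 (−0.73 and −0.61) and Keg1 at days 1 and 2 (−0.82 and −0.57). Serpina12 was higher at day 1 (1.21), with an EGFP mean under the negative-control mark.

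Of 28 female-biased liver genes, 4 were higher at day 1, 6 at day 2 and 7 at day 4, and 0 were lower at any day by limma's adjusted p. The list's median stayed near that of all genes, at −0.02, 0.08 and 0.09. Akr1c18, a hydroxysteroid dehydrogenase, rose from an EGFP mean of 3.89, 3.87 and 3.92 log2 to 7.41, 8.99 and 9.70 in HPNWT livers at days 1, 2 and 4. Cyp2b9, a P450 enzyme, was higher by 2.15, 3.61 and 4.80, and Abcd2, a peroxisomal fatty acid transporter, by 2.38, 2.88 and 3.11. Atp6v0d2, a proton pump subunit, was higher by 1.46, 2.72 and 2.32. Cyp2b13 was higher by 1.12 at day 2 and 1.72 at day 4. The EGFP means of these 5 genes lay under the negative-control mark, so no fold is given. The HPNWT means of Atp6v0d2 at day 1 (5.58) and of Cyp2b13 at day 4 (5.90) lay under that mark too.

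**Figure D4:**
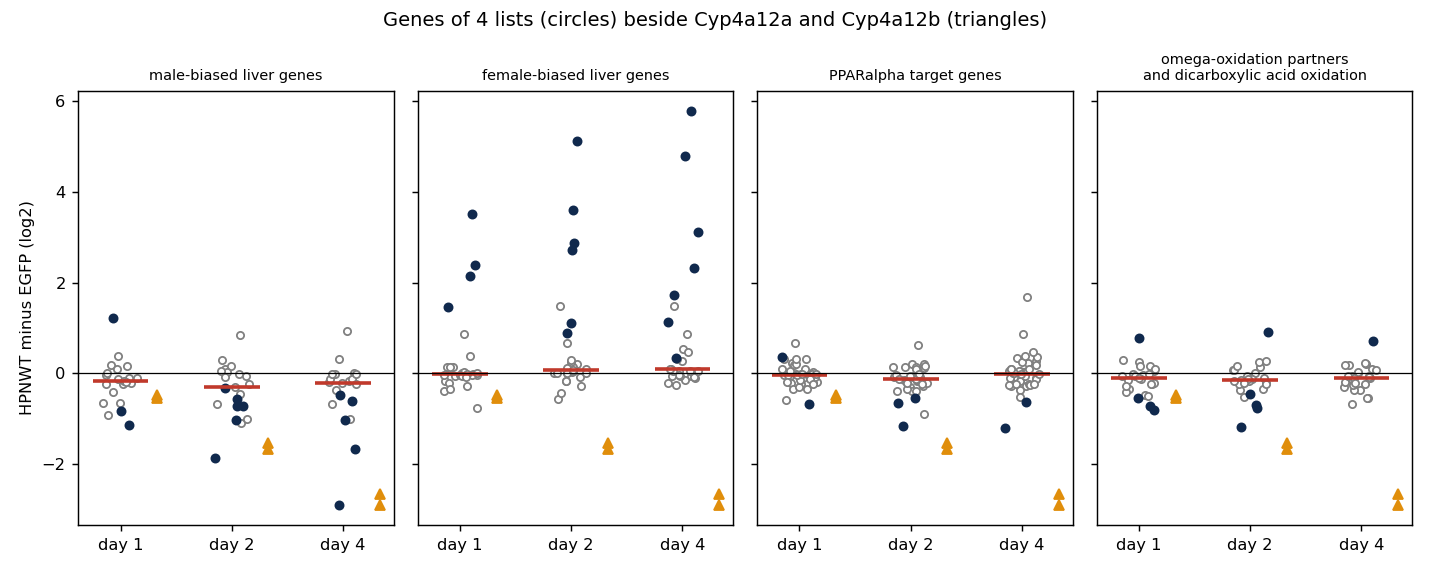
Difference HPNWT minus EGFP (y axis, log2) at day 1, 2 and 4 (x axis) of each measured gene in 4 lists, with filled circles for genes with an adjusted p under 0.05, open circles for the others and a red bar for the list's median. Orange triangles repeat Cyp4a12a and Cyp4a12b, which lie at −2.66 and −2.90 at day 4, as far down as Elovl3 (−2.90) in the male-biased list.

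Of 19 genes of growth hormone and sex-hormone signalling, 1, 0 and 1 were called higher and 2, 3 and 1 lower at days 1, 2 and 4. Ghr, the growth hormone receptor, was lower at all 3 days (−0.58, −0.55 and −0.45), and Igfals, which carries IGF1 complexes in plasma, at days 1 and 2 (−1.30 and −0.84). Igf1 was lower at day 2 (−0.63), and Igfbp2, an IGF-binding protein, was higher at day 4 (0.56). The Igf1 call held in 11 of the 26 alternative settings.

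Of 22 genes of arachidonic acid and epoxide metabolism, 1, 2 and 1 were called higher and 3, 3 and 3 lower at days 1, 2 and 4. The epoxide hydrolases Ephx2 (−0.42, −0.46 and −0.39) and Ephx1 (−0.29, −0.35 and −0.30) were lower at all 3 days. Their day 4 calls held in 9 (Ephx2) and 8 (Ephx1) of the 26 alternative settings. The secreted phospholipase Pla2g12b was higher at all 3 days (0.75, 0.65 and 0.52). Cyp2j6, of an epoxygenase subfamily, was higher at day 2 (0.42), and Cyp2j5, of the same subfamily, was lower at day 4 (−0.43).

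Of 16 drug metabolism and transport genes listed as targets of the receptors CAR and PXR, 2 were lower at day 1, 3 at day 2, and 3 lower with 1 higher at day 4. Cyp3a25 was lower at all 3 days (−0.67, −0.96 and −0.82). Cyp2b10, the classic CAR target, was called higher at day 4 (1.17, adjusted p = 0.0482), with an EGFP mean under the negative-control mark. That call held in 5 of the 26 alternative settings, with limma adjusted p up to 0.274.

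Of 22 genes of the fasting response and gluconeogenesis, 1, 1 and 0 were called higher and 2, 2 and 1 lower at days 1, 2 and 4. Pck1, which makes phosphoenolpyruvate, was lower at day 1 (−0.79), and G6pc, which releases glucose, at day 2 (−2.12, SE 0.57) and day 4 (−2.27, SE 0.57, adjusted p = 0.0496). Of the 26 alternative settings, the Pck1 call held in 17 and the G6pc calls in 18 at day 2 and 7 at day 4. Bdh1, a ketone body enzyme, was higher at day 1 (0.85).

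Of 19 genes of fatty acid synthesis, 2, 4 and 2 were called higher and 1, 1 and 0 lower at days 1, 2 and 4. The median was 0.17, 0.24 and 0.24. Acaca, the acetyl-CoA carboxylase, was higher at all 3 days (0.65, 0.75 and 0.64), Fasn, the fatty acid synthase, at days 1 and 2 (1.06 and 0.94), Scd1 at day 2 (0.56) and Gpam at days 2 and 4 (0.44 and 0.63). Mlxipl, which encodes the factor ChREBP, was lower at days 1 and 2 (−0.82 and −0.69).

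The calls of list genes depended on the settings. Of the genes named by the rule, 29 at day 1, 36 at day 2 and 24 at day 4, the fit with the negative-control covariate ended the call of 13, 32 and 5. Calls held in every setting run for 13 at day 1, 4 at day 2 and 7 at day 4, and 0 reversed.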

How the data were processed

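Liver RNA of 18 mice was hybridised to 1 array each. The value table, as deposited, holds log2 RMA signals (robust multi-array average), which per the labels come from the authors' Transcriptome Analysis Console. The authors' deposited comparison tables hold, per the file headers, group averages on a log2 scale, a signed fold change treated as a score, and each test's p-value with its false discovery rate. They also gave the gene symbols. No source used here states the software's version or settings.

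The fit used lmFit and eBayes of limma 3.58.1 (R 4.3.3, statmod 1.5.0, data.table version 1.17.8) on every cluster with a symbol, 40161 in all, as 6 group means over 18 arrays, with no further scaling, filter or covariate. Tests were 2-sided, and a call is a Benjamini-Hochberg adjusted p under 0.05 over all clusters. Errors are SE of the fit or SD of 3 arrays. Exact permutation of 3 against 3 arrays reaches p = 0.1 at best, so limma alone was used. Folds are on the RMA scale. The fit was tested on simulated data with known changes.

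The members and lists were chosen with earlier results of these data known, so their p-values are not independent support. The average over 3 days was added after values were seen. Genes named from lists are up to 4 called members a list and day with the smallest adjusted p, and some of these are counted without a name. Ppara, Por, Hpn, Cyp4a30-ps and values of days outside this rule were added after values were seen. Genes named by likeness are the 3 with the highest Pearson r per member. 1 of these for Cyp4a32 is not reported here. Same-numbered arrays of 1 day did not deviate together, so no pairing was used. Alternatives were median centring, repeated quantile normalization, a filter on dim clusters, array weights, the negative-control median as covariate, a replicate block, all 65956 transcript clusters, each day's arrays alone, and leaving out each array. The labels name no scan date or batch. Labels do not say whether animals shared a litter or cage.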

Additional observations from a re-analysis of the deposited data

How the results depend on the processing

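With 3 arrays per group, signal spread between animals limits every value. The negative-control median as covariate ended the day 2 calls of Cyp4a12a (−0.61), Cyp4a12b (−0.82), Cyp4a32 (−0.56) and the shared cluster (−0.86), which left 0 members called by limma (adjusted p from 0.676 to 0.812). Of all clusters it left 16 called lower at day 2, against 1408 as reported. The covariate also ended the 3-day averages of Cyp4a12a (−1.0), Cyp4a32 (−0.48) and the shared cluster (−0.58), and made the Cyp4a12b change of effect from day 1 to day 4 pass (−2.46, adjusted p = 0.0351). Cyp4a32 at day 2 was also lost under median centring (−1.13), repeated quantile normalization (−0.97) and the 6 arrays of that day alone (−1.08, adjusted p = 0.0724). The day's arrays alone also ended the calls of the shared cluster at day 2 (−1.30, adjusted p = 0.0519) and of Cyp4a12a at day 4 (−2.66, adjusted p = 0.0860), leaving 1 member called at day 4, and made the shared cluster pass at day 1 (−0.51, adjusted p = 0.0458). Of all clusters, each day's arrays alone called 280, 2238 and 35 lower at days 1, 2 and 4. As reported these numbered 649, 1408 and 269. Array weights made Cyp4a12b (−0.61) and Cyp4a32 (−0.80) pass at day 1, 2 members in all, and the change of effect from day 1 to day 4 pass for Cyp4a12a (−2.63) and Cyp4a12b (−2.73). Of all clusters, 3411 were called lower at day 1 with these weights, against 649 as reported. The change of Cyp4a12a over days in HPNWT livers was lost under median centring (adjusted p = 0.0966) and with all clusters tested (adjusted p = 0.0672). The causes were not tested.

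Replicate numbers did not pair the arrays: 1 of 9 same-numbered pairs had deviations correlated above 0.1 (range −0.25 to 0.11). With the replicate block, Cyp4a32 at day 2 was −1.08 (adjusted p = 0.0661), and no other member's call was lost.

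Leaving out 1 array at a time, the day 2 difference ran from −1.80 to −1.32 for Cyp4a12a (call lost in 5 of 18 fits), −1.91 to −1.44 for Cyp4a12b (1), −1.35 to −0.73 for Cyp4a32 (14) and −1.68 to −1.0 for the shared cluster (3). Without HPNWT day 2 replicate 2 none of these 4 was called by limma (adjusted p = 0.113, 0.0573, 0.237 and 0.119). At day 4 the ranges were −3.28 to −2.30 for Cyp4a12a and −3.43 to −2.57 for Cyp4a12b, called in all 18 fits. The change of effect from day 1 to day 4 ran from −2.80 to −1.83 for Cyp4a12a and −2.87 to −2.02 for Cyp4a12b. The adjusted p of the change over days in HPNWT livers ran from 1.3e-04 to 0.130 for Cyp4a12a and 1.4e-04 to 0.0649 for Cyp4a12b. Members called at day 2 ran from 0 to 3, and called list genes from 15 to 41 at day 1, 20 to 62 at day 2 and 16 to 39 at day 4. The share of all clusters called in these fits was not counted. Without HPNWT day 2 replicate 2, where 0 members were called at day 2, the called list genes also fell, to 20 from 43 as reported.

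Counts of called list genes at day 1 were 19 under median centring, 95 with array weights and 17 with the covariate, at day 2 103 with weights, 4 with the covariate and 74 with that day's arrays alone, and at day 4 62 with weights and 8 with that day's arrays alone. As reported they were 29, 43 and 28. Over all clusters, 38.2% of calls at day 2 were higher (869 higher and 1408 lower). The share was 24.0% under median centring (413 and 1309), which moved every day 2 difference by −0.05. It was 46.0% under repeated quantile normalization (1073 and 1260) and 55.2% with array weights (4557 and 3703). With the negative-control covariate it was 81.6%, of far fewer calls (71 and 16). The check of further clusters with a member's symbol could not be run, since each symbol had 1 cluster.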
